A study of Mus musculus with 6 samples.

Results

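The vacuolar proton pump, or V-ATPase, was described here gene by gene in the skull roof of newborn mice, together with the proteins that assemble it and the Ragulator complex that docks on it. The members were chosen by name, as every gene whose symbol starts with Atp6v or Atp6ap, plus Tcirg1, Dmxl1, Dmxl2, Wdr7, Rogdi, Tmem199 and the Ragulator genes Lamtor1 to Lamtor5. This gave 37 of the 24346 gene names in the files, namely 10 genes of the V0 sector, 13 of the V1 sector, 3 accessory genes, 4 genes of the rabconnectin group, 1 assembly factor of the endoplasmic reticulum, 5 Ragulator genes and 1 pseudogene. Calvaria, with the interparietal and occipital bone and without the ear cartilage, came from 3 controls with floxed Pth1r alleles (Pth1rfl/fl) and from 3 libraries labelled mutant (Prx1-Cre;Pth1rfl/fl), in which Prx1-Cre is added to those alleles. Pth1r encodes the receptor of parathyroid hormone and parathyroid hormone-related protein, and the floxed alleles are thus carried by both groups. Prx1-Cre is known to recombine floxed alleles in limb and skull mesenchyme and not in the blood lineage from which osteoclasts form. The labels call the animals newborn and do not say whether a library is 1 animal or a pool, so p-values measure the spread between these libraries, which may be technical.

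The V-ATPase is a rotary pump. Its V1 sector, in the cytosol, hydrolyses ATP, and its V0 sector, in the membrane, carries protons into lysosomes, endosomes and secretory vesicles, while the accessory proteins help the sectors assemble and reach their membranes. Several subunits come in a ubiquitous form and in forms restricted to certain cells. In osteoclasts, the bone-resorbing cells, pumps with the a3 form of subunit a (gene Tcirg1) and the d2 form of subunit d (Atp6v0d2) are inserted in the ruffled border and acidify the space over the bone, and loss of Tcirg1 causes osteopetrosis. On lysosomes the pump binds Ragulator, the scaffold that anchors the Rag GTPases and so brings the growth kinase complex mTORC1 to the lysosome when amino acids are present.

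Each library gave FPKM values (fragments normalised for transcript length and for library size), which are levels per length and can be set side by side between genes. The summed FPKM of a library ran from 521168 to 559624. Read totals are not used here. Steps between the smallest values gave a depth relative to control 1 of 0.838 and 0.908 in controls 2 and 3 and of 0.966, 0.785 and 0.697 in libraries 1 to 3 labelled mutant. Pth1r, the targeted gene, had 89.2, 93.3 and 102 FPKM in controls, and 126.9, 124.9 and 142 in the libraries labelled mutant, so it was not lower there. The labels do not name the floxed exons, and since a deleted allele can still yield transcript, these values could not check the labels, and the direction of each comparison below is that of the labels alone.

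Several genes of the pump rose in the libraries labelled mutant, and no Ragulator gene passed the test. Of the 31 members with a mean of at least 1 FPKM, which were the ones tested, 6 rose and 0 fell (limma, with Benjamini-Hochberg, BH, adjustment over all 13180 tested genes), against a background of 0.524% of all tested genes that rose and 0.0835% that fell. The 6 that rose, 19.4% of those tested, were Atp6v0d2, Tcirg1 and Atp6v0b of V0, Atp6v1b2 and Atp6v1a of V1, and the accessory gene Atp6ap2. Of the 31, 25 had a higher mean log2 value and 6 a lower one, where 50.5% of all tested genes had a higher one. The 6 members under the filter all had a lower one. At an unadjusted p under 0.05, 17 members were higher and 0 lower, where the background was 5.91% and 4.62%. The 3 libraries labelled mutant lay above all controls in 18 of the 31 members, 58.1%, against 9.34% of all tested genes, and below all controls in 0, against 6.79%. The median log2 difference was 0.17 over the tested members and 0.0015 over all tested genes. Of the calls, that of Atp6v0d2 held in each of 17 other settings and that of Atp6v1b2 in 14. Those of Tcirg1, Atp6v1a, Atp6v0b and Atp6ap2 held in 10, 8, 7 and 7. Among these settings, median-of-ratios scaling had nearly equal factors in all libraries, and another only summed Atp6v0c with its pseudogene. Both could hardly change a call, so that a call held in them says little. Leaving out control 1, 2 or 3 left 2, 3 and 2 members past the threshold, and leaving out library 1, 2 or 3 labelled mutant left 1, 3 and 2.

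**Figure D1:**
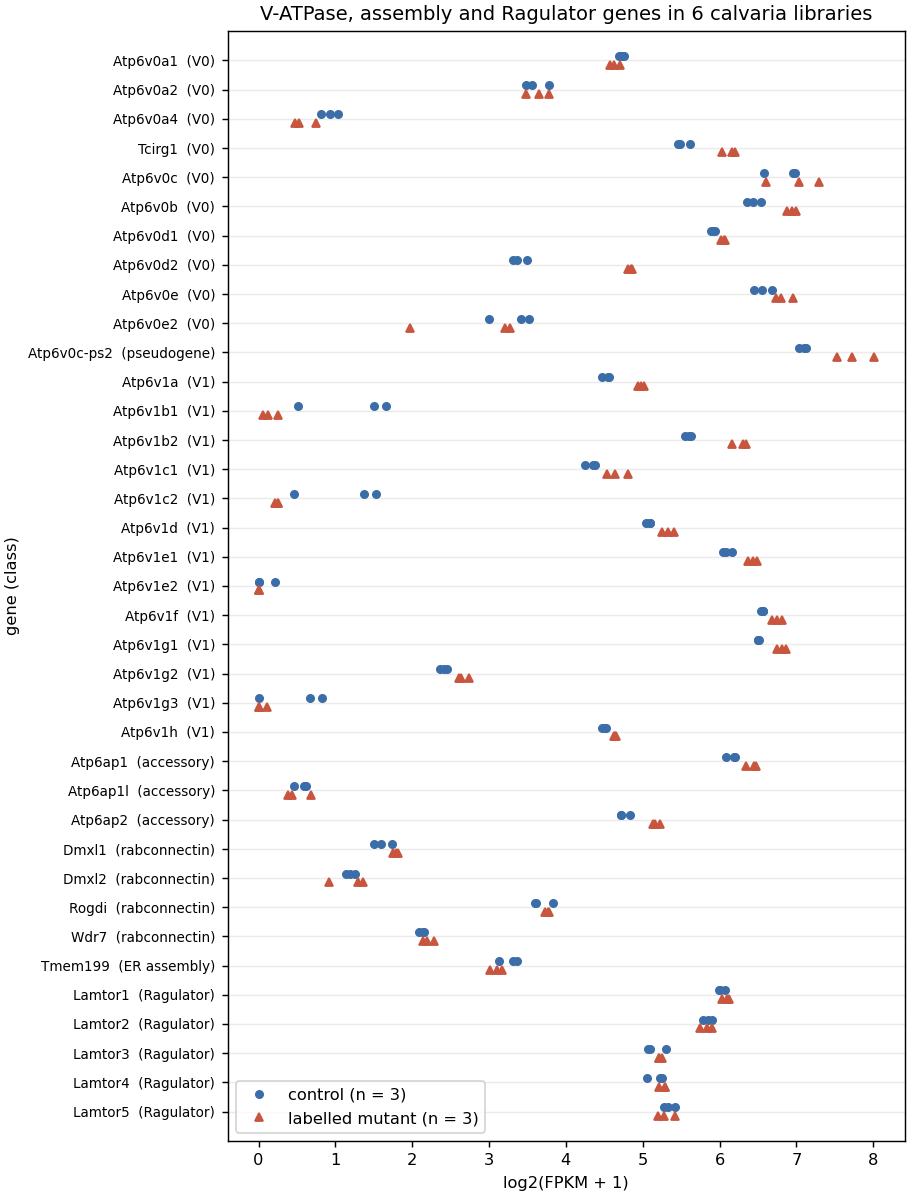
Level of each of the 37 members as log2(FPKM + 1) in the 3 control libraries (circles) and the 3 libraries labelled mutant (triangles), by class. The groups stand apart for Atp6v0d2, Atp6v1b2, Tcirg1 and Atp6v0b, and overlap in all 5 Lamtor genes.

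Summed by sector, V0, V1 and the accessory genes gave like ratios, and Ragulator a ratio near 1. The V0 genes together had 418, 485 and 459 FPKM in controls, and 536, 567 and 598 in the libraries labelled mutant. The V1 genes had 402, 399 and 402 FPKM in controls, and 521, 506 and 482 in the libraries labelled mutant. For both sectors every library labelled mutant lay above every control, with ratios of mean FPKM of 1.25 each. The accessory genes gave a ratio of 1.25 as well, from 96.8 ± 3.91 to 121 ± 4.78 FPKM (SD, n = 3 each), and Ragulator a ratio of 1.02, from 230.1 ± 6.17 to 235 ± 6.16 FPKM. These sums are descriptions and were not tested. That of V0 leaves out the pseudogene Atp6v0c-ps2 (means of 134 and 216 FPKM), which shares sequence with the V0 gene Atp6v0c. Summed over this pair the ratio was 1.38, so the likeness of the V0 ratio to the others depends on leaving that row out.

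In V0, the isoforms known from osteoclasts had the largest log2 differences among the genes tested. Atp6v0d2, the osteoclast form of the subunit that couples V1 to the V0 ring, stood at 9.33, 8.90 and 10.2 FPKM in controls, and at 27.9, 27.9 and 26.9 in the libraries labelled mutant. The groups were far apart and the libraries within each lay close together. The means were 9.49 ± 0.68 and 27.6 ± 0.58 FPKM (SD, n = 3 each), a ratio of 2.90, with a log2 difference of 1.45 ± 0.07 (SE; limma, BH-adjusted p = 0.00112). Its ubiquitous counterpart Atp6v0d1 had 59.4, 60.3 and 58.3 FPKM in controls, and 65.5, 66.4 and 63.6 in the libraries labelled mutant. That ordering was complete too, but the ratio was 1.099, and with a log2 difference of 0.13 ± 0.05 (SE) the gene did not pass (limma, BH-adjusted p = 0.401). Atp6v0d2 lies on the minus strand of chromosome 4 of GRCm38, from 19876841 to 19922605, and its exons overlap no other annotated gene.

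Tcirg1, the a3 form of the large membrane subunit against which the ring turns, was the most abundant of the 4 genes for subunit a. It had 43.9, 48.1 and 42.9 FPKM in controls, and 70.8, 64.5 and 72.9 in the libraries labelled mutant, with no overlap, a ratio of 1.54 and a log2 difference of 0.61 ± 0.07 (SE; limma, BH-adjusted p = 0.0200). The other forms of subunit a did not go with it. Atp6v0a1, the ubiquitous form that neurons also carry on synaptic vesicles, had 25.6, 26.1 and 24.7 FPKM in controls, and 23.8, 25.1 and 22.9 in the libraries labelled mutant. Atp6v0a2, the form of the Golgi and endosomes, had 10.1, 12.7 and 10.8 FPKM and then 10.1, 12.7 and 11.6 FPKM. Both overlapped between groups and neither passed (limma, BH-adjusted p = 0.695 and 0.956). The Tcirg1 call was lost without control 1 (adjusted p = 0.0830), without control 3 (0.0872) and without libraries 1 (0.107) or 3 (0.0753) labelled mutant, all in limma with BH adjustment. On GRCm38 the gene runs from 3896050 to 3907133 on the minus strand of chromosome 19, with no other annotated exon on it.

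Within a subunit, the osteoclast forms had a larger share of the summed level in each library labelled mutant than in each control. Atp6v0d2 made up 13.6%, 12.9% and 14.9% of the summed FPKM of subunit d in controls and 29.9%, 29.6% and 29.7% in the libraries labelled mutant. Tcirg1 made up 54.4%, 54.9% and 54.1% of subunit a in controls and 67.3%, 62.6% and 67.6% in the libraries labelled mutant. The means differed by 15.9 percentage points for Atp6v0d2 and 11.4 for Tcirg1, and neither share overlapped between groups. Of the 9 restricted forms whose share was taken, 6 had groups that did not overlap, namely Tcirg1 and Atp6v0d2 above controls and Atp6v0a4, Atp6v0e2, Atp6v1b1 and Atp6v1c2 below. Such shares have no counterpart over all genes to set this count against, and shares of 1 subunit depend on each other. Each of the 6 gave p = 0.1 in a two-sided exact permutation test, the smallest p that 3 libraries against 3 allow, or 0.15 when adjusted over the 9 shares.

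**Figure D2:**
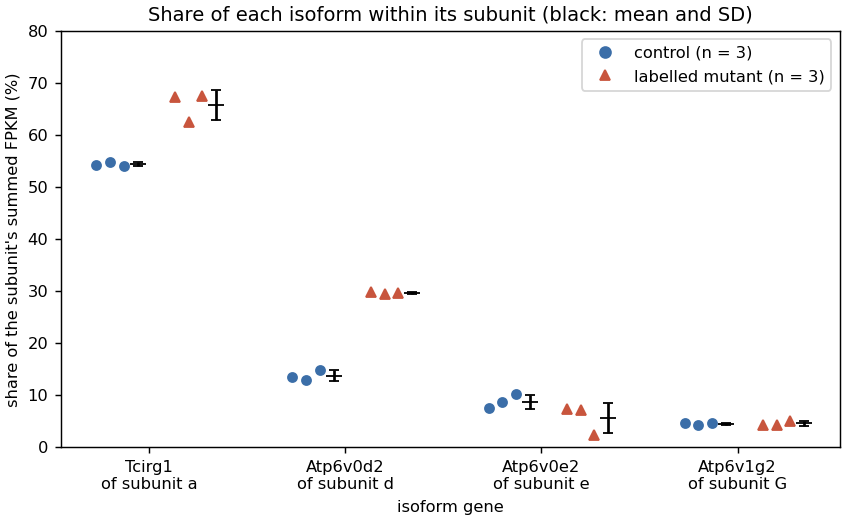
Share (%) of the summed FPKM of a subunit taken by 1 isoform gene in each control library (circles) and each library labelled mutant (triangles), with the mean and SD in black (n = 3 each). Tcirg1 and Atp6v0d2 stand apart between groups, at 54.1% to 54.9% against 62.6% to 67.6% and at 12.9% to 14.9% against 29.6% to 29.9%, while Atp6v1g2 overlaps.

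Osteoclast genes outside the pump moved with these members. All 11 genes of an osteoclast marker list had a higher value in the libraries labelled mutant, and 7 rose. The background was 50.5% and 0.524% of all tested genes. Calcr (means of 0.80 FPKM in controls and 2.24 in the libraries labelled mutant) and Siglec15 (0.86 and 1.41) reached the filter only through the libraries labelled mutant. Neither rose, and Siglec15 overlapped between groups. The summed level of the 11 genes was 608 to 682 FPKM in controls, and 1627 to 1775 in the libraries labelled mutant, with 0 markers at 0 in every library. The ratio of 2.90 for Atp6v0d2 lay between those of Ctsk, the collagen-degrading cathepsin K (2.21), and Acp5, tartrate-resistant acid phosphatase (3.12), while the ratio of 1.54 for Tcirg1 lay below both. In a macrophage list, 8 of 10 genes had a higher value and 2 rose (the same background), with sums of 344 to 394 and 433 to 461 FPKM and 0 markers at 0 throughout. Those that rose were Cd68 (ratio 1.99) and Csf1r (1.49). The others had ratios from 0.958 (Fcgr1) to 1.19 (Adgre1). Other tissues differed too. Of 6 cartilage genes, 5 lay below all controls (background 6.79%) and 1, Matn1, fell (limma, BH-adjusted p = 0.0205), with sums of 598 to 1335 FPKM in controls and 261 to 360 FPKM under the mutant label. Of 8 osteoblast genes 6 had a higher and 2 a lower value, and 1 rose, Ibsp, the bone sialoprotein (ratio 1.93; limma, BH-adjusted p = 0.0306). The lower ones were Bglap, below all controls (ratio 0.381), and Sost (ratio 0.736), and neither passed. Of 8 neutrophil genes, the 5 tested all had a higher value but 0 passed. Under the filter, Elane and Mpo had lower means (ratios 0.374 and 0.693) and Ltf a higher one (1.57). The part of these cells in the pump genes was not tested, and in bulk tissue more cells of a type and more RNA per cell cannot be told apart.

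Among the ubiquitous V0 genes, that of the proteolipid c'' was the 1 to rise. Atp6v0b had 80.9, 92.1 and 85.7 FPKM in controls, and 121.9, 126 and 117 in the libraries labelled mutant, a ratio of 1.41 with no overlap and a log2 difference of 0.49 ± 0.07 (SE; limma, BH-adjusted p = 0.0336). Leaving out any 1 library ended this call, with an adjusted p between 0.0549 and 0.159 in limma with BH adjustment. Atp6v0e, a small subunit of the membrane sector, had 86.2, 101 and 92.4 FPKM and then 110.6, 105.5 and 123 FPKM, again without overlap, but did not pass (adjusted p = 0.282). Atp6v0b spans 117884326 to 117887333 on the minus strand of chromosome 4 of GRCm38, and 11.9% of its exon bases lie opposite Gm12841, whose reads would be counted with it if strand was not used.

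The main ring subunit c could not be cleanly measured, because its gene shares sequence with a processed pseudogene. Of the 50-base windows of the pseudogene Atp6v0c-ps2 transcript, 88.0% also occur in transcripts of Atp6v0c, and 32.3% of those of Atp6v0c occur in Atp6v0c-ps2. Atp6v0c had 94.6, 125 and 123 FPKM in controls, and 96.5, 130.2 and 156 in the libraries labelled mutant, which overlapped. Atp6v0c-ps2 had 129.6, 135.7 and 138 FPKM in controls, and 256, 209.6 and 183 in the libraries labelled mutant, which did not overlap. Among the libraries labelled mutant the pair ran in opposite orders, library 1 having the least Atp6v0c and the most Atp6v0c-ps2. Their sum was 224, 261 and 261 FPKM in controls, and 353, 339.7 and 339 in the libraries labelled mutant, a ratio of 1.38. Among the libraries labelled mutant its SD was 7.61 FPKM, below those of Atp6v0c (30.0) and Atp6v0c-ps2 (37.1), while in controls its SD of 21.3 FPKM was above theirs (17.1 and 4.40). Neither row passed (adjusted p = 0.875 for Atp6v0c and 0.0827 for Atp6v0c-ps2), nor did the sum when it replaced both rows (adjusted p = 0.0594, log2 difference 0.47), a fit added after the values were seen, all in limma with BH adjustment.

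**Figure D3:**
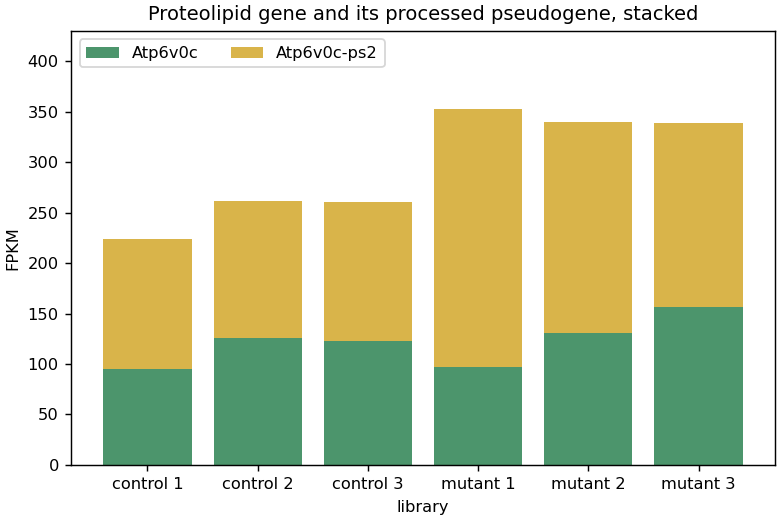
FPKM of Atp6v0c and of its processed pseudogene Atp6v0c-ps2, stacked for each of the 6 libraries. The stack reaches 224 to 261 FPKM in controls, and 339 to 353 in the libraries labelled mutant, while the split between the pair differs from library to library.

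In V1, every ubiquitous subunit was higher in each library labelled mutant than in each control. This held for 8 of 8 genes, against 9.34% of all tested genes, with ratios from 1.10 to 1.62 and a median log2 difference of 0.32, and 2 of the 8 rose. Atp6v1b2, the ubiquitous form of the nucleotide-binding subunit B and the form that osteoclasts use, had 48.4, 45.8 and 47.5 FPKM in controls, and 80.5, 78.3 and 70.8 in the libraries labelled mutant. It had the largest ratio of the sector, 1.62, with a log2 difference of 0.68 ± 0.07 (SE; limma, BH-adjusted p = 0.00872), and passed without each library except library 1 labelled mutant (adjusted p = 0.0556). Atp6v1a, the catalytic subunit A that alternates with B in the V1 head, had 21.2, 22.3 and 22.7 FPKM in controls, and 31.3, 29.5 and 30.5 in the libraries labelled mutant. Its ratio was 1.38 and its log2 difference 0.45 ± 0.06 (SE; limma, BH-adjusted p = 0.0259), a call that ended without any 1 library (adjusted p from 0.0803 to 0.133). Atp6v1b2 lies at 69088646 to 69113711 on the plus strand of chromosome 8 and Atp6v1a at 44085402 to 44139705 on the minus strand of chromosome 16 of GRCm38, both with no other annotated exon on theirs.

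The stalk and regulatory subunits of V1 had smaller ratios than Atp6v1b2 and Atp6v1a and did not pass. Atp6v1e1 and Atp6v1g1, which encode subunits of the peripheral stalks that hold V1 against V0, had 67.4 ± 2.67 and 89.9 ± 0.63 FPKM in controls, and 85.2 ± 3.64 and 111 ± 4.78 in the libraries labelled mutant (SD, n = 3 each). Their adjusted p was 0.0835 and 0.0897 in limma with BH adjustment. Of Atp6v1g1, 19.2% of the 50-base windows recur in another annotated gene, the largest overlap being with Gm13453. Atp6v1c1, whose product releases when V1 detaches from V0, had a ratio of 1.28, and the ratios were 1.19 for Atp6v1d of the central rotor, 1.14 for its partner Atp6v1f and 1.10 for Atp6v1h, a regulator of ATP hydrolysis. Atp6v1h had 21.2, 21.7 and 21.9 FPKM in controls, and 23.8, 24.1 and 23.7 in the libraries labelled mutant. Its order was complete though its log2 difference was the smallest of the tested V1 genes (limma, BH-adjusted p = 0.387).

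**Figure D4:**
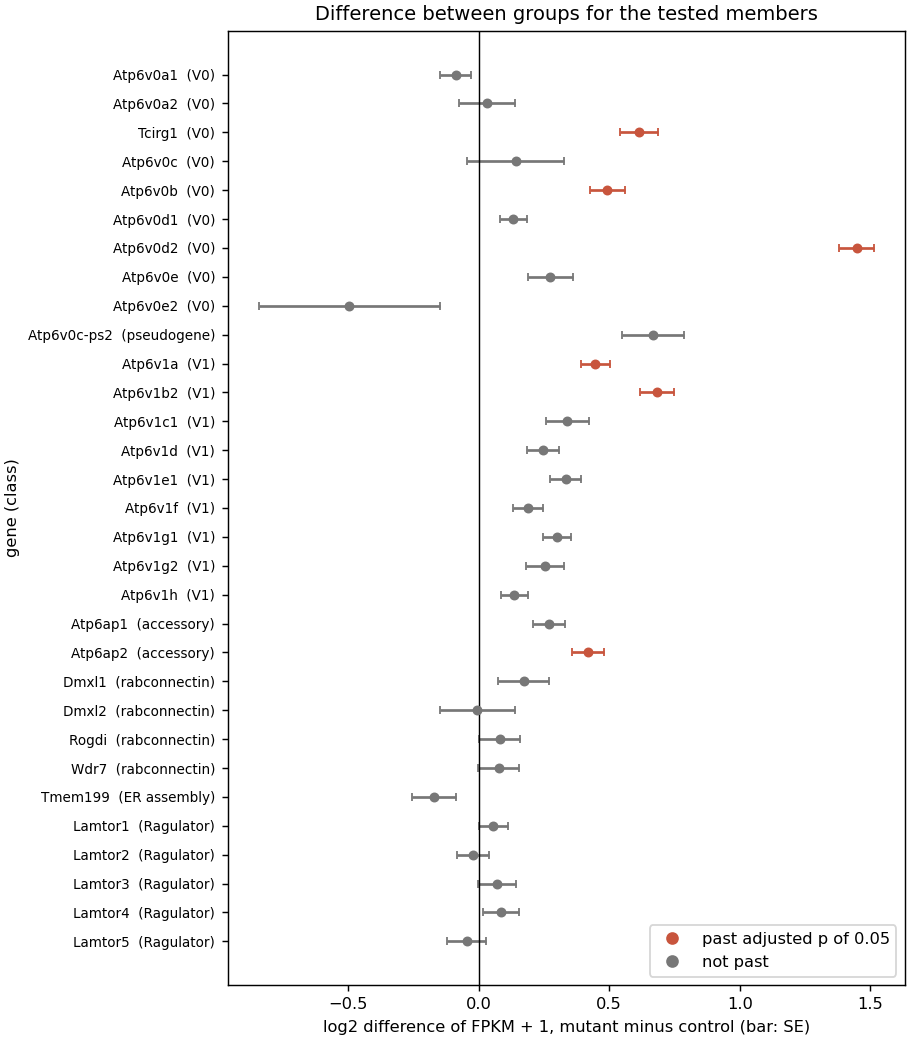
Difference in log2(FPKM + 1) between the libraries labelled mutant and the controls for the 31 tested members, with SE bars (n = 3 each) and colour for those past an adjusted p of 0.05 in limma. Atp6v0d2 stands at 1.45, the V1 genes between 0.14 and 0.68, and the Ragulator genes between -0.05 and 0.09.

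Differences in level were unequal among subunits that are partners in 1 pump. The mean difference in FPKM was 29.3 for Atp6v1b2 and 8.38 for Atp6v1a, whose products are present in equal number in V1. It was 24.4 for Tcirg1 and 18.1 for Atp6v0d2 in V0, and 9.08 for Atp6ap2. In controls, too, Atp6v1b2 had the higher level of that pair, 47.2 ± 1.35 against 22.1 ± 0.77 FPKM (SD, n = 3 each).

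Of the accessory genes, Atp6ap2 rose and Atp6ap1 did not pass. Atp6ap2, which encodes the prorenin receptor, a single-pass protein whose membrane part sits in V0, had 25.3, 25.3 and 27.5 FPKM in controls, and 36.5, 34.1 and 34.7 in the libraries labelled mutant. Its ratio was 1.35 and its log2 difference 0.42 ± 0.06 (SE; limma, BH-adjusted p = 0.0424), lost without any 1 library (adjusted p from 0.0872 to 0.185). Atp6ap1, the Ac45 protein that caps the V0 ring and is known to be needed for osteoclast resorption in mice, had 66.7, 72.5 and 71.7 FPKM and then 86.6, 80.6 and 87.8 FPKM. It too had no overlap, with a ratio of 1.21 (limma, BH-adjusted p = 0.159). Atp6ap1l, a related gene, was under 1 FPKM throughout, at 0.31 to 0.61, and was not tested. Atp6ap2 spans 12587801 to 12617049 on the plus strand of the X chromosome of GRCm38.

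The restricted isoforms of acid-secreting epithelium had lower values in the libraries labelled mutant, at low levels. Atp6v1b1, Atp6v0a4, Atp6v1c2 and Atp6v1g3 encode forms known from kidney intercalated cells, and the first pair also serve the inner ear. Atp6v1b1 had 0.42, 1.83 and 2.15 FPKM in controls, and 0.093, 0.19 and 0.043 in the libraries labelled mutant. Atp6v1c2 had 0.38, 1.88 and 1.59 FPKM and then 0.20, 0.20 and 0.16 FPKM. In both, all controls lay above all libraries labelled mutant, and control 1 was far below controls 2 and 3. Atp6v1g3 was listed at 0 in control 1 and in libraries 1 and 3 labelled mutant, with 0.59 FPKM in control 2, 0.78 FPKM in control 3 and 0.080 FPKM in library 2 labelled mutant. Atp6v0a4 had 1.05, 0.76 and 0.90 FPKM in controls, and 0.44, 0.68 and 0.38 in the libraries labelled mutant, so its groups did not overlap either, but control 1 was its highest library. The mean of each was under 1 FPKM, so they were not in the main test, and with no filter on low values none passed (limma, BH-adjusted p from 0.478 to 0.798).

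Of the 9 genes listed as markers of such epithelium, Foxi1 and Slc26a4 followed a like order among libraries. Foxi1, the transcription factor of intercalated cells and of the endolymphatic sac, had 0.58, 2.41 and 2.89 FPKM in controls, and 0.15, 0.40 and 0 in the libraries labelled mutant. Slc26a4, the anion exchanger pendrin, had 1.37, 3.53 and 4.90 FPKM and then 0.50, 1.00 and 0.051 FPKM. Neither passed (limma, BH-adjusted p = 0.235 and 0.208), and control 1 was again the lowest control. Foxi1, Slc26a4 and Oc90 reached the filter of 1 FPKM only through the controls. Of the 6 tested genes of the list, 5 lay below all controls (background 6.79%), while Slc4a1 overlapped and was higher (ratio 1.38). Otog (ratio 0.930), Slc4a9 and Tecta, under the filter, overlapped between groups too. In Otor and Otog control 1 was not the lowest control. Over the 9 genes of that marker list, the sum was 9.11 to 98.9 FPKM in controls, and 3.52 to 12.9 in the libraries labelled mutant, with 0 markers at 0 in every library. The highest of these sums, in control 2, owed 56.6 FPKM to Oc90, a gene of the inner ear, which had 1.00 FPKM or less in every other library. The part of this tissue in the result was not tested.

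**Figure D5:**
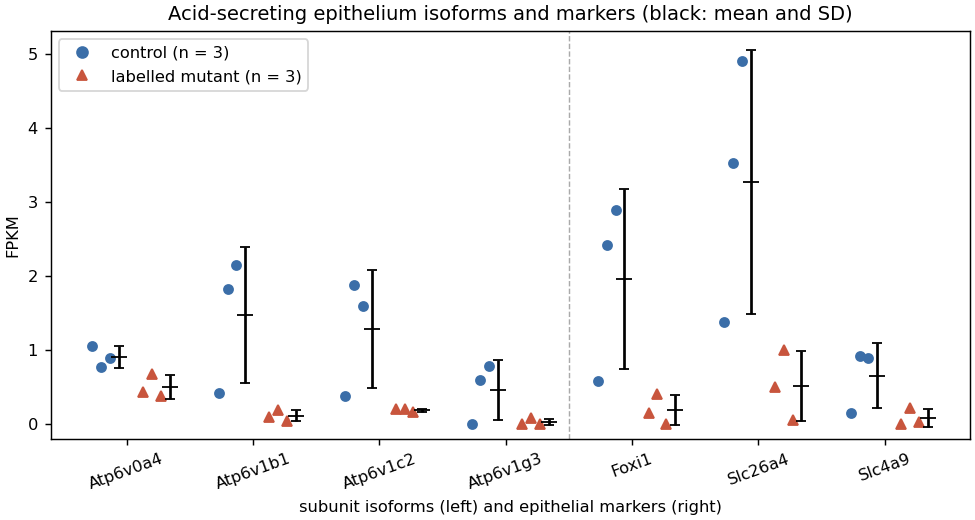
FPKM of 4 restricted subunit isoforms (left of the dashed line) and of the epithelial markers Foxi1, Slc26a4 and Slc4a9 (right) in control libraries (circles) and libraries labelled mutant (triangles), with the mean and SD in black (n = 3 each). In Atp6v1b1, Atp6v1c2 and Foxi1 control 1 lies below controls 2 and 3 and above the libraries labelled mutant.

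The remaining restricted forms showed no shared direction. Atp6v0e2, a form of subunit e enriched in brain, had 7.01, 9.63 and 10.5 FPKM in controls, and 8.70, 8.23 and 2.91 in the libraries labelled mutant and did not pass (limma, BH-adjusted p = 0.711). Library 3 labelled mutant was also the lowest in the neuron marker list, with a sum of 35.6 FPKM where the other libraries had 55.7 to 136 FPKM, and it had 0.39 FPKM of the synaptic gene Snap25. Of the 8 genes of that list 7 were tested and 0 passed, and the part of these genes in the Atp6v0e2 value was not tested. Atp6v1g2, the neuronal form of subunit G, had 4.45, 4.12 and 4.34 FPKM in controls, and 5.08, 5.20 and 5.70 in the libraries labelled mutant, with its highest value in that same library (limma, BH-adjusted p = 0.251). Atp6v1e2, the testis form of subunit E, was listed at 0 in 5 libraries and at 0.16 FPKM in control 2.

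Outside the accessory genes, the genes listed for putting the pump together did not pass. The rabconnectin group, which promotes the joining of V1 to V0, comprises Dmxl1, Dmxl2, Wdr7 and Rogdi. Dmxl1 had 2.02, 1.83 and 2.34 FPKM in controls, and 2.37, 2.44 and 2.53 in the libraries labelled mutant, the 1 gene of the 4 without overlap (limma, BH-adjusted p = 0.628). Rogdi had 11.2, 13.2 and 11.1 FPKM and then 12.7, 12.3 and 12.6 FPKM (adjusted p = 0.817). Wdr7 and Dmxl2 had ratios of 1.07 and 1.01. Tmem199, an assembly factor of V0 in the endoplasmic reticulum, had 7.72, 9.25 and 8.95 FPKM in controls, and 7.99, 7.09 and 7.58 in the libraries labelled mutant (limma, BH-adjusted p = 0.566). In a list of 9 other assembly and regulatory genes, among them Vma21 and Ccdc115 of V0 assembly and the TLDc-domain gene Oxr1, 8 were tested, 0 rose and 0 fell, and the median log2 difference was 0.03. Rnasek, a protein found with V0, had 89.5 ± 8.30 and 105 ± 5.47 FPKM (SD, n = 3 each) and the smallest p of them (adjusted p = 0.364), followed by Tmem9 (ratio 0.926, adjusted p = 0.614), both in limma with BH adjustment.

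Ragulator genes differed little in value between groups and none passed. Lamtor1, the lipid-anchored member that wraps around the rest, had 63.4, 66.4 and 62.7 FPKM in controls, and 64.3, 68.9 and 67.2 in the libraries labelled mutant (limma, BH-adjusted p = 0.817). Lamtor4, of the inner pair with Lamtor5, had 32.2, 37.0 and 36.3 FPKM and then 38.2, 35.9 and 38.0 FPKM (adjusted p = 0.761). All 5 genes overlapped between groups, their ratios ran from 0.969 to 1.06, 0 passed and 0 had an unadjusted p under 0.05. The largest SE of the 5 log2 differences was 0.07. Reads of Lamtor1, Lamtor3 and Lamtor5 are less certain, since 18.4%, 18.9% and 14.5% of their 50-base windows recur in other annotated genes.

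The Rag GTPases and the mTORC1 genes that act on the lysosome did not pass either. Of 17 such genes, 8 had a higher and 9 a lower value, 0 rose, 0 fell, 0 had an unadjusted p under 0.05 and the median log2 difference was -0.01. The smallest p in this list were those of Rragb, 1 of the Rag GTPases (ratio 0.781, adjusted p = 0.597), and Rheb, the GTPase that activates mTORC1 (ratio 0.931, adjusted p = 0.628), in limma with BH adjustment. Of the MiT/TFE transcription factors, which drive lysosomal genes, 0 of 4 passed. Tfec, the member found in macrophages and osteoclasts, had 1.39 ± 0.59 FPKM in controls and 2.58 ± 0.75 FPKM in the libraries labelled mutant (SD, n = 3 each), and Mitf had a ratio of 1.28 (limma, BH-adjusted p = 0.405 and 0.585). Tfeb had 12.6 ± 1.08 and 11.3 ± 1.10 FPKM (SD, n = 3 each).

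Among partners of the pump in bone acidification there was 1 call. Of 8 such genes, 6 had a higher value (background 50.5%), 5 lay above all controls (background 9.34%), and Rab3d, a GTPase of secretory vesicles, lay below all controls (ratio 0.883, not past the threshold). Snx10, a sorting nexin needed for resorption, rose from 8.72 ± 0.48 to 19.6 ± 1.67 FPKM (SD, n = 3 each; limma, BH-adjusted p = 0.00349). Clcn7, the chloride-proton exchanger that balances the charge of the pumped protons, had a ratio of 1.28, and its partner Ostm1 a ratio of 1.37, without passing (limma, BH-adjusted p = 0.109 and 0.191).

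Promoters of the pump genes are shown because MiT/TFE factors are known to bind the palindrome CACGTG, often within TCACGTGA, upstream of lysosomal genes. Windows of 300 bases, from 250 before to 50 after an annotated start, were taken from RefSeq on GRCm38.p6. They matched 26 of the 37 members, among them 4 of the 6 that rose. CACGTG, searched on both strands, occurred for 6 of these 26 genes (23.1%), where 8.09% of all 27025 genes with a window hold it. TCACGTGA, which contains it, occurred for 3 (11.5%), where 1.12% of all genes hold it. The shares over all genes count every gene with a window, whether or not it was tested here, so they are no matched background. The V0 and V1 genes with CACGTG are printed 5′ to 3′ on the strand of the gene, with CACGTG or TCACGTGA in capitals. They are Atp6v0b at chr4:117887280-117887579 (minus strand), Atp6v1a at chr16:44139210-44139509 (minus strand), Atp6v0d1 at chr8:105566015-105566314 (minus strand) and Atp6v0e at chr17:26676146-26676445 (plus strand).
Atp6v0b: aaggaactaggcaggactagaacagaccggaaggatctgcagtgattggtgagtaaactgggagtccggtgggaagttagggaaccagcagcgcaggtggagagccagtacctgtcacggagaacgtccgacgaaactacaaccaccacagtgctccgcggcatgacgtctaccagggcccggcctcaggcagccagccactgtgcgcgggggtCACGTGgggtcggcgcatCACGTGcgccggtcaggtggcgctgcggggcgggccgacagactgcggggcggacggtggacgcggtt
Atp6v1a: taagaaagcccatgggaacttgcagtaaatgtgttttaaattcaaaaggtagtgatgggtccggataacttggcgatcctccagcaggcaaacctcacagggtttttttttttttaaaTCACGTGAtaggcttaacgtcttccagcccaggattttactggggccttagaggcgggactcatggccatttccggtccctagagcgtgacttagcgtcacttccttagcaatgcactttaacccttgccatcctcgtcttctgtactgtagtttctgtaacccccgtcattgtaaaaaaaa
Atp6v0d1: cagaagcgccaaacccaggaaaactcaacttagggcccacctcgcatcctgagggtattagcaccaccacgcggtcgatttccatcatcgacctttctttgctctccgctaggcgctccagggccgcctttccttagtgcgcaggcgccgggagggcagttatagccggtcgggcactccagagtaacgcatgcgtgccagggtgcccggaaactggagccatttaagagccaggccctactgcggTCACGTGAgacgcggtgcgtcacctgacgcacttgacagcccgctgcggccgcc
Atp6v0e: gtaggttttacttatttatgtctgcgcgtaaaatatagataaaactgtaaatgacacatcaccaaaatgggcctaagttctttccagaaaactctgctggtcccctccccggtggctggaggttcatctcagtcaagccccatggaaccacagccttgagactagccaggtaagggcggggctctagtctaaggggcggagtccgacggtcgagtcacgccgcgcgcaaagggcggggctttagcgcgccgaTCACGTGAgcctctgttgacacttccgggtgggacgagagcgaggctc
Of these genes Atp6v0b and Atp6v1a rose, and Atp6v0d1 and Atp6v0e did not pass. In GENCODE M21 the spans of Atp6v1a and Atp6v0e begin further upstream, at 44139705 and 26663231, so their windows lie inside the genes as annotated there. The remaining genes with CACGTG were Lamtor1 and Lamtor4, which overlapped between groups. Tcirg1 and Atp6ap2 have windows in the table with none of the motifs searched. TCATGTG, the related motif known for Mitf, occurred for Atp6v0c, Lamtor1 and Lamtor2 (11.5%, against 4.31% of all genes), and TGANTCA, the AP-1 motif, for Atp6v0a1 alone (3.85%, against 8.97%). A match says only that the letters are there, and Atp6v0d2 and Atp6v1b2 were not among the windows used here.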

How the data were processed

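Calvaria RNA was sequenced after a stranded messenger RNA preparation, per the labels' protocols, giving 3 control libraries and 3 labelled mutant. The values the authors deposited are FPKM. The submitters' processing notes name the build mm10 and, with no role or order, the tools Cufflinks 2.2.1, SAMtools 0.1.19, Bowtie2 2.2.3 and TopHat2 2.0.13. Which annotation, options and strand setting they used is not given in the sources used here. Median-of-ratios factors were 1.002 or 1.003 in all libraries. Absolute depth is unknown and no test for counts was run.

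The 13180 genes whose mean reached 1 FPKM entered limma 3.58.1 (R 4.3.3, eBayes with trend) as log2(FPKM + 1), two-sided, with Benjamini-Hochberg adjustment over all of them at 0.05. "Rose" and "fell" are used for genes past it. Log2 differences understate changes of low genes, and ratios are of group means of FPKM. Isoform shares were tested by exact permutation. A check on simulated data preceded the fit. Values in full are given for members past the threshold, the 2 smallest p of each class and the isoform families. The members, lists and tests were chosen with earlier results of these data known, so patterns already known from them, such as the rises of Atp6v0d2 and Tcirg1, are no independent support. Of 115 entries in the other gene lists, 1 matched no name. Coordinates, exon overlaps and transcripts for the shared windows are those of GENCODE M21 (GRCm38, which is mm10).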

Additional observations from a re-analysis of the deposited data

How the results depend on the processing

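The number of members past the threshold stayed at 6, with the same genes, for a pseudocount of 0.1, median-of-ratios scaling, quantile normalization, robust eBayes and a stricter filter of 5 FPKM, and was 4 with eBayes without trend and 9 with array weights. It was 1 with no filter on low values, 2 with a sex term (added after seeing the data) and 1 to 3 when 1 library was left out, always with 0 lower. The sex term took as male the libraries with Ddx3y above Xist, which were control 2 and libraries 2 and 3 labelled mutant. Sex was thus not balanced between groups, and with this term only Atp6v0d2 and Atp6v1b2 passed. Over all genes the 80 calls became 16 with no filter, 183 with array weights, 43 with the sex term and 16 to 44 without 1 library. The cause was not tested. With the replicate number as a block, 1 member (Atp6v0d2) and 25 genes passed. Deviations from the group means correlated at -0.071 to 0.016 between same-numbered libraries and at -0.059 to 0.045 between the others. Taken from means of 3 libraries, these values cannot settle whether the numbers pair libraries.

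Of the log2 differences of members, 14 fits changed a sign, all in genes that did not pass. Dmxl2 became 0.056 with quantile normalization, 0.028 with array weights and 0.035 with the sex term, and ran from -0.089 to 0.13 without 1 library. Atp6v0a2 became -0.013 with array weights and -0.050 with the sex term, and ran from -0.038 to 0.12 without 1 library. Atp6v0c became -0.063 with array weights and ran from -0.017 to 0.33 without 1 library, as did Lamtor2 from -0.056 to 0.020 and Lamtor5 from -0.11 to 0.0026. The difference in the Atp6v1g2 share became -0.12 percentage points with 1 FPKM added and ran from -0.21 to 0.19 without 1 library. That of Atp6v1e2 became -0.37 percentage points with 1 FPKM added. Without 1 library it ran from -0.12 to 0, as control 2 held the only value above 0. The other shares kept their direction. Unknown read totals leave the levels under 1 FPKM without a stated counting error.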
